A study of Mus musculus with 2 samples.

Results

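Among mouse protein-coding genes, a minority is annotated as one uninterrupted exon. The genes described here are the protein-coding genes of GENCODE M21 on chromosomes 1 to 19 whose exons, merged over transcripts, form 1 block. Olfactory (Olfr), vomeronasal (Vmn) and trace amine receptors (Taar), replication-dependent histones (Hist1h to Hist4h) and symbols of the Gm-number and Rik type were left out. The rule uses gene type, exon blocks, chromosome and symbol, and no measured value, and found 658 members among 20780 autosomal coding genes. A further 640 genes of 1 block were left out by symbol. The label of genes outside receptor families needs a limit, since 84 members carry symbols of bitter taste receptors (Tas2r) or other G protein-coupled receptors. The words single-exon need another limit. In 551 members every annotated transcript has 1 exon, while 107 members have at least 1 spliced transcript whose introns are filled by another transcript in the annotation.

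Trimethylation of lysine 36 of histone H3 (H3K36me3) was mapped by chromatin immunoprecipitation and sequencing in E14TG2a.4. This is a line of mouse embryonic stem cells from a male of strain 129/Ola, and its labels give the stage as embryonic and the age as 3.5 days. There was 1 group of 2 biological replicates from separate biosamples, with no treatment and no altered genotype named in the labels, so no conditions were compared and all values are those of 1 line. The peak sets of the replicates held 107779 and 98185 peaks over 139 and 127 Mb. No read counts came with the peak lists, so the depth behind each value is unknown, and the possible control library named in the labels was not used here. Pou5f1, Nanog and Zfp42, which define pluripotent stem cells, were covered by peaks over 68.8%, 71.6% and 78.6% of their bodies in replicate 1 and 64.8%, 61.9% and 81.6% in replicate 2.

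H3K36me3 is laid down by SETD2, a methyltransferase that travels with elongating RNA polymerase II, and it usually builds up along transcribed gene bodies toward their 3′ ends. Genes with one exon make mRNA without splicing. Many arose as retrocopies, that is, by reverse transcription of a spliced mRNA and insertion of the copy elsewhere in the genome, often inside an intron of another gene, and others are ancient intronless regulators such as Sox and forkhead transcription factors, immediate early genes and many receptors.

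Members that are copies of spliced genes can be seen in their sequence. For 4 members, 48 coding bases are shown where the related gene is interrupted by an intron, because this is what places the 4 among copies without introns, and their H3K36me3 is described further on. Each window runs 5′ to 3′ with 24 bases on each side of the position of the intron in the related gene, on mm10, and capitals mark the bases at which the pair differs. Mcts2, an imprinted gene related to the translation factor gene Mcts1, lies on the plus strand at chr2:152687509-152687556. The Mcts1 bases lie on the plus strand at chrX:38602650-38602673 and chrX:38605939-38605962, on either side of an intron of 3265 bp. Cstf2t, a polyadenylation factor gene related to Cstf2, lies on the plus strand at chr19:31083988-31084035. The Cstf2 bases lie on the plus strand at chrX:134069884-134069907 and chrX:134073136-134073159, around an intron of 3228 bp. D1Pas1, a DEAD-box helicase gene related to Ddx3x, lies on the plus strand at chr1:186968874-186968921. The Ddx3x bases lie on the plus strand at chrX:13288917-13288940 and chrX:13289395-13289418, around an intron of 454 bp. Pgk2, the phosphoglycerate kinase gene known for its use in male germ cells, lies on the minus strand at chr17:40207871-40207918. The bases of Pgk1, its counterpart in other cells, lie on the plus strand at chrX:106197938-106197961 and chrX:106199647-106199670, around an intron of 1685 bp.
Mcts2: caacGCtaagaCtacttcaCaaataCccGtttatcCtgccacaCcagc
Mcts1: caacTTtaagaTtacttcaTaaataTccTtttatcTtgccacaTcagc
Cstf2t: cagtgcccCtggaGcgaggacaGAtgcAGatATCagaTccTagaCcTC
Cstf2: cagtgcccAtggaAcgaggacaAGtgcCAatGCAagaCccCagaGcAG
D1Pas1: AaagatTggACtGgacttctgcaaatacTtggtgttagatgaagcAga
Ddx3x: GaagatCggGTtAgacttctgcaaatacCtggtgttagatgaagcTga
Pgk2: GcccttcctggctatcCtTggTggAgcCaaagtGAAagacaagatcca
Pgk1: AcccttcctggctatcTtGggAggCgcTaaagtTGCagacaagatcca
The pairs differed at 8, 14, 7 and 9 of the 48 bases in the order shown. Over the whole coding sequence the related gene has 5 introns for Mcts2, 12 for Cstf2t, 16 for D1Pas1 and 10 for Pgk2, where each of the 4 members has 0. The proteins are 93.9%, 63.3%, 92.9% and 83.7% identical in the same order.

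H3K36me3 was found on fewer single-exon members than on genes with several exon blocks. A gene was called marked when peaks covered at least 10% of its body, from annotated start to end, in each of the 2 replicates. By that rule 122 of 658 members were marked (18.5%), against 7831 of 19482 coding genes with 2 or more exon blocks (40.2%) and 38.4% of all autosomal coding genes. Each replicate alone gave nearly the same picture, with 133 members and 8175 genes of several blocks at 10% or more in replicate 1 and 132 members and 7992 genes of several blocks in replicate 2. No base lay in a peak of either replicate in 509 members (77.4%), against 46.2% of genes with several blocks. The difference between the classes in these counts is thus larger than that between replicates. Counted in bases pooled over all genes of a class, the order was the opposite. Peaks covered 14.49% and 13.95% of the bases of members in replicates 1 and 2, against 13.11% and 11.99% for genes of several blocks. Members whose transcripts all have 1 exon had 10.97% and 10.52%. Within each length class up to 12 kb the pooled share of members was below that of genes of several blocks. Taken over all lengths, marked members were covered about as far as marked genes of several blocks. The median coverage of marked members was 54.3% in replicate 1 and 53.4% in replicate 2, against 57.4% and 53.2% for marked genes of several blocks. Within length classes from 1 kb up, marked members were covered less. From 1 to 2 kb the medians were 41.7% and 46.8%, against 50.1% and 52.2%. From 2 to 4 kb they were 54.4% and 47.0%, against 57.0% and 56.6%. From 4 to 12 kb they were 53.9% and 55.8%, against 64.4% and 62.3%. Under 1 kb, 7 marked members had 100% and 96.8%, against 91.9% and 94.5% in 9 marked genes of several blocks. The authors' fold enrichment, averaged over all bases of the gene with 0 outside peaks, had medians of 3.08 and 3.40 in marked members, against 3.60 and 4.17 in marked genes of several blocks.

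Over all lengths, members with a spliced transcript were marked as often as genes of several blocks. Of these 107, 43 were marked (40.2%), among them the ribosomal protein genes Rpl9 and Rps13, the dynein light chain gene Dynll1 and Atf4, the transcription factor of the integrated stress response. The 107 have a median length of 2824 bp, against 19733 bp for genes of several blocks, and were not compared with them at like length. Of the 551 members whose transcripts all have 1 exon, 79 were marked (14.3%). Rpl9 was covered to 89.5% and 93.8% in replicates 1 and 2, and Atf4 to 61.7% and 62.6%. The marked share of all members therefore includes a class of genes that are spliced, and counts for both classes are given where they bear on a result.

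Length accompanied the difference. Members are short, their median being 1848.5 bp and that of genes of several blocks 19733 bp. Under 1 kb, 7 of 133 members and 9 of 108 genes of several blocks were marked (5.26% and 8.33%). From 1 to 2 kb the counts were 33 of 223 members and 82 of 385 other genes (14.8% and 21.3%), and from 2 to 4 kb they were 45 of 208 and 427 of 1251 (21.6% and 34.1%). From 4 to 12 kb, 37 of 94 members (39.4%) and 1900 of 5194 genes of several blocks (36.6%) were marked. The longest members thus had a marked share near that of other genes of their length, although among those with only 1-exon transcripts it was 21 of 65 (32.3%). The part of length in the difference was not tested.

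Uniqueness of sequence also moved with the mark. Of the 32-base words in a gene, the share found once in the genome was at least 90% in 490 members, of which 106 were marked (21.6%). From 50% to 90% unique, 16 of 118 members were marked (13.6%). Below 50% unique, 0 of 50 were marked, and 49 of these had no covered base. Whether reads could be placed on such genes is not given in the sources used here, so an absent peak there cannot be told apart from an unplaced read.

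**Figure D1:**
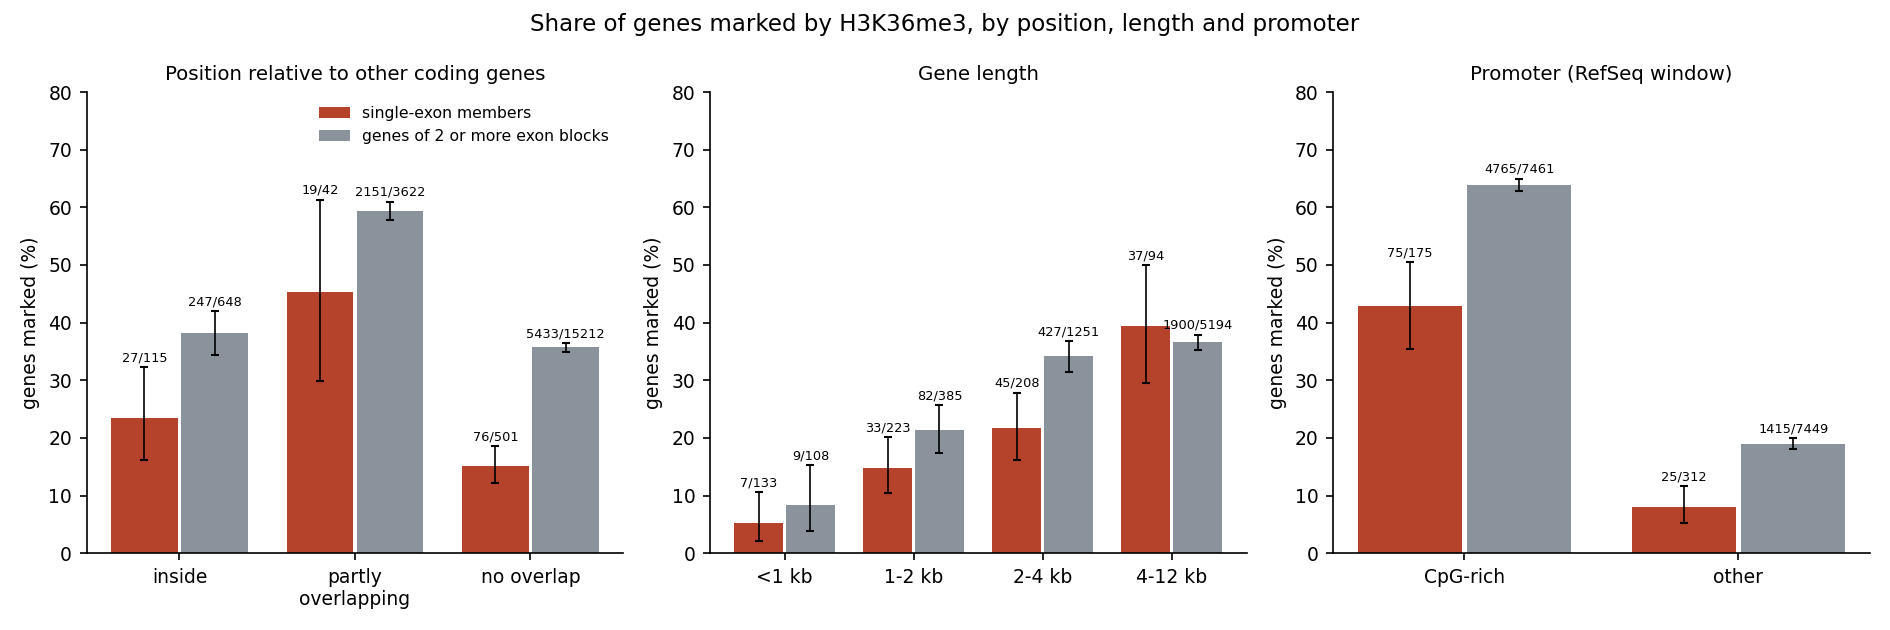
Percent of genes marked (y axis) for single-exon members and for coding genes of 2 or more exon blocks, by position relative to other coding genes, by gene length and by promoter class (x axes). Numbers above the bars are marked genes over all genes of the class, and error bars are exact 95% Clopper-Pearson intervals over genes, which cover counting error only; members lie below genes of several blocks in every class except 4 to 12 kb, where 39.4% and 36.6% were marked.

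The surroundings of a member went with its state. Of 115 members lying wholly inside another coding gene, 27 were marked (23.5%), of 42 that partly overlap one, 19 (45.2%), and of 501 that overlap none, 76 (15.2%). Genes of several blocks showed 38.1%, 59.4% and 35.7% in the same classes, so members were lower in each. A peak over overlapping genes cannot be assigned to either of them.

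Among members that overlap no other coding gene, the marked share was highest beside a marked neighbour. Within 2 kb of another marked gene, 25 of 43 were marked (58.1%). The share was 8 of 28 (28.6%) from 2 to 5 kb, 8 of 29 (27.6%) from 5 to 10 kb, 17 of 104 (16.3%) from 10 to 50 kb and 18 of 297 (6.06%) beyond 50 kb. Gtsf1l, a member of 822 bp with 100% coverage in both replicates, lies 2345 bp from Mybl2, which is marked. Ufsp1, a gene of the UFM1-specific protease family with 76.5% in replicate 1 and 82.6% in replicate 2, lies 38 bp from Srrt. The coverage of these genes is thus beside that of a close marked gene, and the part of the neighbour in it was not tested. Counts by distance were not made for genes of several blocks, so it is not known whether they show the same trend.

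**Figure D2:**
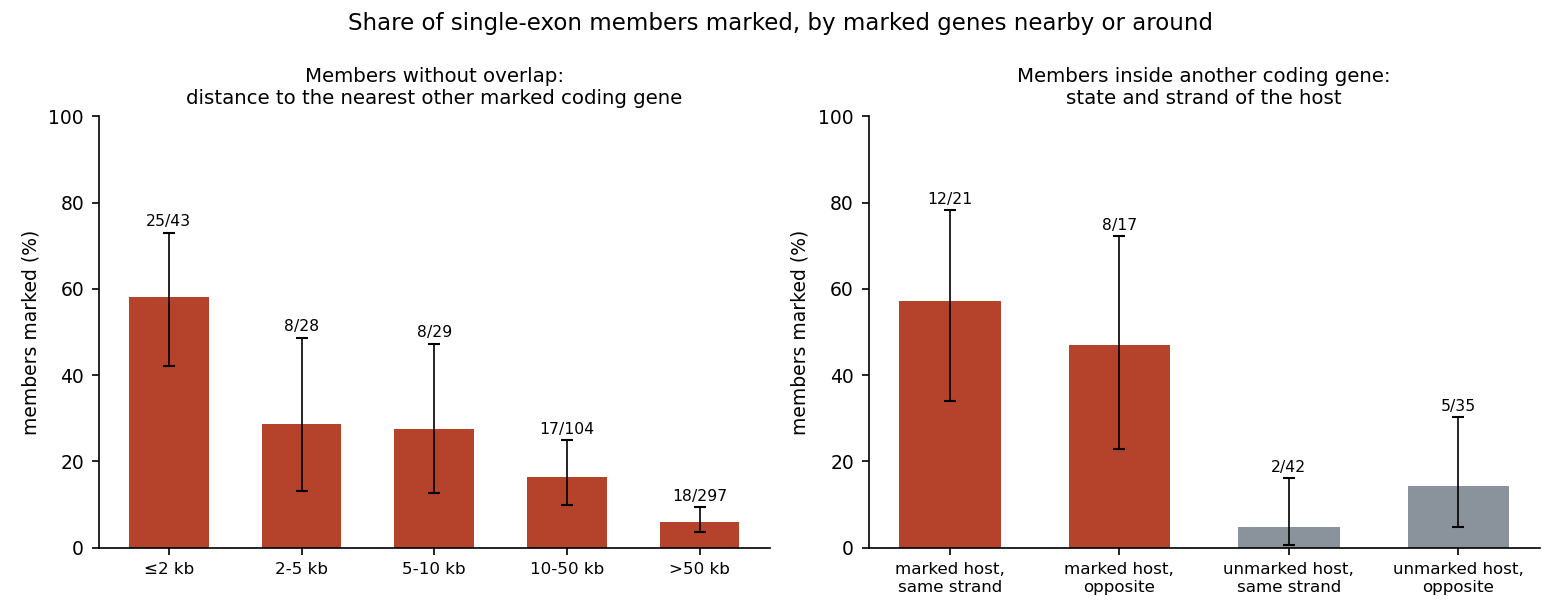
Percent of members marked (y axis), on the left for members without overlap by distance to the nearest other marked coding gene, and on the right for members inside another coding gene by the state and strand of that gene. Error bars are exact 95% Clopper-Pearson intervals over genes and cover counting error only; the share is 58.1% within 2 kb of a marked gene and 6.06% beyond 50 kb, and 20 of 38 members in marked hosts were marked against 7 of 77 in unmarked hosts.

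Marked members far from any other marked gene numbered 35 of 401 lying over 10 kb away (8.73%). Of the 35, 23 have only 1-exon transcripts. Sox2, the pluripotency transcription factor, was covered to 63.5% and 81.5% in replicates 1 and 2, lies within the non-coding gene Sox2ot, and is 569083 bp from the nearest other marked coding gene, Dnajc19. Fzd7, a Wnt receptor gene, was covered to 83.3% and 77.0%. Fzd10, another Wnt receptor gene, had 17.0% and 22.7%. Like every marked member, all 3 passed the threshold in both replicates by rule, and Fzd10 was near it.

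Further members of the set are named with their roles. Hexim1, an inhibitor of the elongation kinase P-TEFb, had 67.5% and 61.9% in replicates 1 and 2. Purb, a single-stranded nucleic acid binding protein gene, had 78.3% and 75.5%. Pcbp1, which encodes a poly(rC)-binding protein, had 59.7% and 65.1%. Epop, known in stem cells as a partner of elongin BC and Polycomb repressive complex 2, had 42.4% and 42.3%. These genes were named from among the marked members, so their coverage in both replicates follows from the rule. Ado, which encodes cysteamine dioxygenase, had 64.8% and 54.2%, and Pigm, a gene of glycosylphosphatidylinositol anchor synthesis, had 64.3% and 58.2%. D1Pas1, the helicase gene whose sequence is printed above, had 68.6% and 63.1%, at 218057 bp from the nearest other marked gene. The spliced members of the set include Rps13, with 80.5% and 81.1%, and Rpl22l1, with 56.8% and 73.8%.

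**Figure D3:**
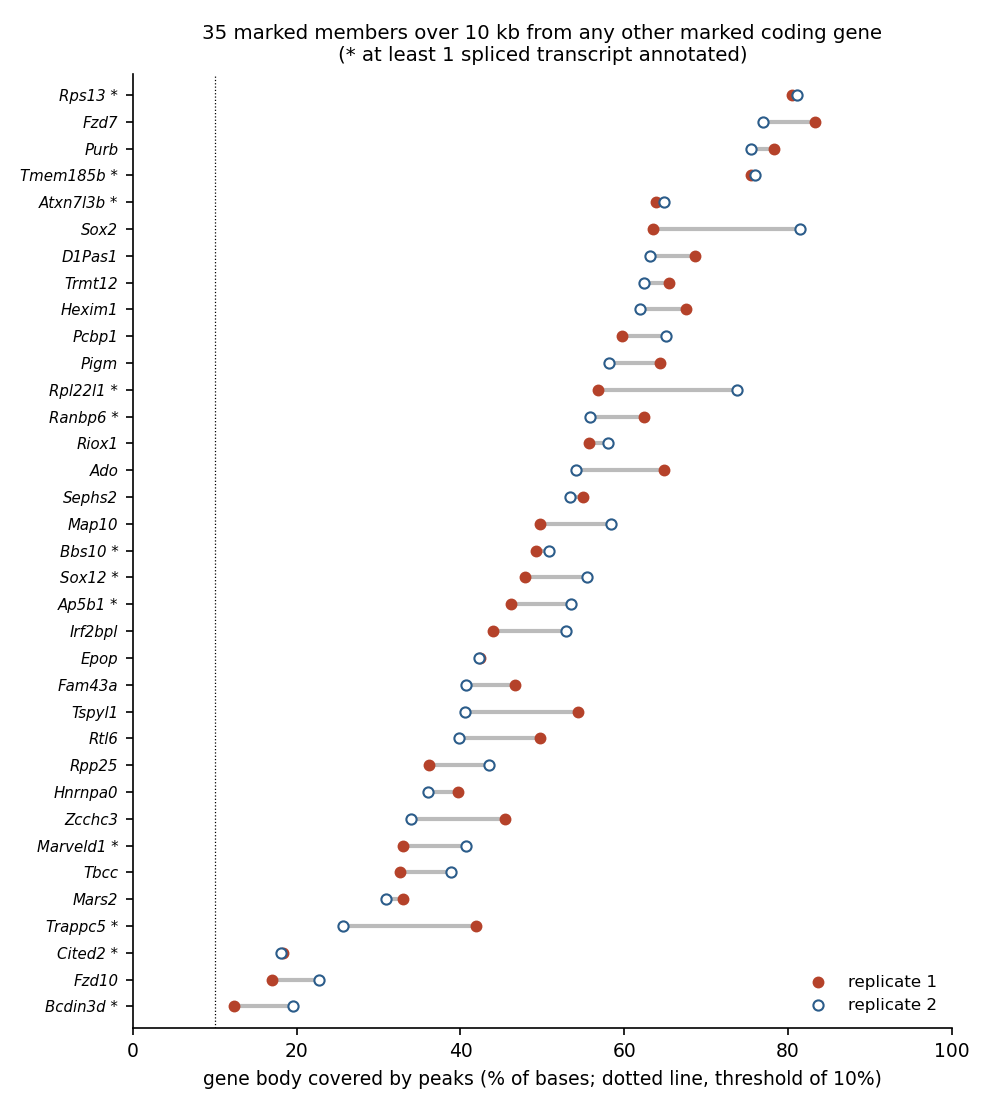
Percent of the gene body covered by peaks (x axis) in replicate 1 (filled) and replicate 2 (open) for the 35 marked members that overlap no other coding gene and lie over 10 kb from any other marked one (y axis, one gene a row). Asterisks mark the 12 members with a spliced transcript, the dotted line is the 10% threshold, and values run from 12.4% in replicate 1 for Bcdin3d to 83.3% in replicate 1 for Fzd7.

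For members nested in a host gene, the state of the member went with that of the host. A host was the longest coding gene holding the member, and it was called marked from its own bases, without those of the member. Of 38 members in marked hosts 20 were marked (52.6%), and of 77 in unmarked hosts 7 (9.09%). On the strand of a marked host 12 of 21 were marked (57.1%), and on the opposite strand 8 of 17 (47.1%). In unmarked hosts the counts were 2 of 42 on the same strand (4.76%) and 5 of 35 on the opposite strand (14.3%). Counts by host state were not made for nested genes of several blocks. One annotated gene, Gm42416, holds 23 of the unmarked nested members, 22 of them protocadherin beta genes, and without hosts of Gm or Rik symbol 25 of 82 nested members were marked (30.5%).

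Marked nested members with a marked host include copies known as retrogenes. Mcts2, in an intron of H13, had 100% in replicate 1 and 79.3% in replicate 2, and H13 without it had 72.4% and 70.8%. Uchl4, a ubiquitin hydrolase gene on the opposite strand of Map2k1, had 100% and 91.1%, and its host 66.6% and 51.1%. Eid3, which encodes a subunit of the SMC5/6 complex, had 96.0% and 91.0% within Txnrd1, which had 53.7% and 51.6%. In these 3, named for being among the most covered nested members, the member was covered further than the host in both replicates. Rsc1a1 lies wholly in an exon of Ddi2 and had 100% in both replicates, so its value is that of the exon. Exosc6, a gene of an RNA exosome subunit lying in an exon of Aars, had 32.9% and 31.8%, against 89.8% and 89.9% for Aars. Over the 38 members in marked hosts, the median of member minus host was -8.83 percentage points in replicate 1 and -2.87 in replicate 2, with 14 and 18 members above their host. At −log10 q of at least 5 the mean of the 2 medians was -15.5 points, against -5.85 with all peaks.

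In 7 cases a marked member lay in a host that was not marked over its whole span. Cstf2t, whose sequence is printed above, lies in an intron of Prkg1 on the opposite strand. It was covered to 70.8% and 71.8% in replicates 1 and 2, while the rest of Prkg1, a cGMP-dependent kinase gene, was covered to 0.181% and 0.148%. Within 2 kb on each side of Cstf2t the covered share was 3.93% and 0%, so the peaks end near the member. Cenpb, which encodes a centromere protein, had 52.6% and 50.5%, and Spef1 around it had 0% in both. Nsmce3, another gene of the SMC5/6 complex, had 27.9% and 23.8% in Fam189a1, which had 0% and 0.0596%.

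In the other 4 the host bases within 2 kb of the member were covered too, in part as far as the member or further. Haspin, the kinase gene for threonine 3 of histone H3, had 68.6% and 64.1%, while Itgae, an integrin gene, had 12.5% and 7.12%. Within 2 kb on each side of Haspin 50% was covered in both replicates. Zrsr1, an imprinted gene related to a splicing factor gene, had 47.1% and 55.9%, with 10.1% and 7.07% in its host Gm28048 and flanks of 50% in both replicates. Tssc4 had 51.5% and 54.3% in Trpm5, which had 5.43% and 3.36%, with 61.3% and 37.9% in the flanks. Fbxl14, an F-box gene, had 36.9% and 29.7% in Wnt5b, which had 2.07% and 1.60%, with 39.9% and 35.6% in the flanks.

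The reverse was found for 18 unmarked members in marked hosts, 11 of them with no covered base in either replicate. Tssk1, a kinase gene of spermatids, had 0% in both replicates inside Dgcr2, which had 59.5% and 52.9%. Slc10a5, a bile acid transporter family gene, had 0% in both inside Gm38303, which had 59.8% and 62.4%. Fahd1, which encodes a mitochondrial hydrolase, had 0% in both inside Hagh, which had 33.4% and 32.8%. In these genes no peak covered the member in either replicate. Over the 18, the host bases within 2 kb of the member had a median coverage of 2.04% in replicate 1 and 0% in replicate 2. The whole hosts without the member had medians of 32.3% and 29.9%. The low coverage was thus not limited to the member itself. In 6 of the 18, 1 replicate passed 10% and the other did not, as for Dnajb7 with 46.9% and 0% and B3gnt4 with 0% and 53.8% in replicates 1 and 2.

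**Figure D4:**
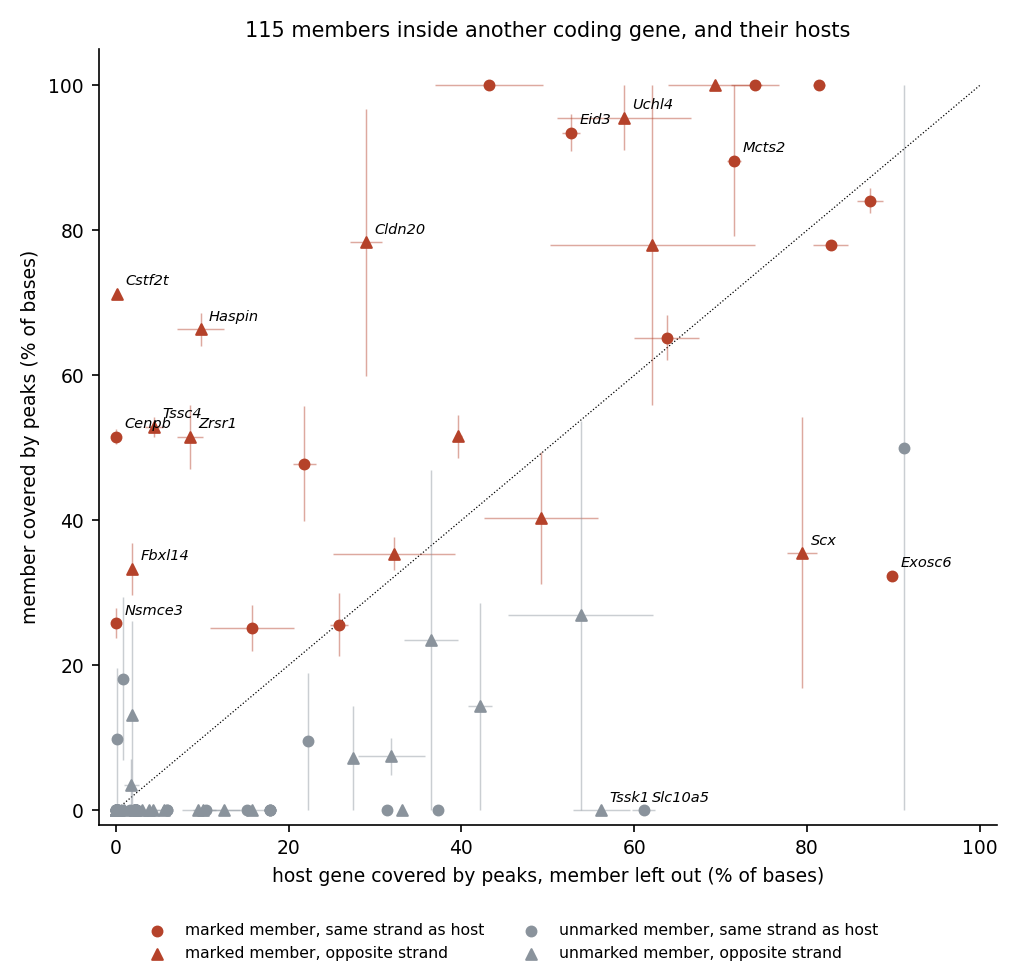
Percent of the member covered (y axis) against percent of its host covered with the member left out (x axis) for the 115 nested members. Points are means and bars the range of the 2 replicates, circles lie on the strand of the host and triangles on the opposite strand; Cstf2t, Haspin, Cenpb, Tssc4, Zrsr1, Fbxl14 and Nsmce3 lie above the dotted line of equality in hosts covered to at most 12.5%, and Tssk1 and Slc10a5 lie at 0 with a covered host.

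Along marked members the peaks lay toward the 3′ end. In the 76 marked members without overlap, the body was divided into 3 equal parts, which had coverage of 17.0% ± 1.9 (5′), 65.7% ± 1.1 (middle) and 74.9% ± 1.5 (3′; SD, n = 2). The 2 kb upstream were covered to 6.90% ± 0.02 and the 2 kb downstream to 42.6% ± 5.0, neighbouring genes included. In the 45 of these members with no other coding gene within 2 kb, the values were 2.30% ± 0.27 upstream and 34.4% ± 5.0 downstream. The 3′ part was covered further than the 5′ part in both replicates in 67 of the 76, and the reverse held in 4. In 1523 marked genes of several blocks under 12 kb without overlap, the 3 parts were covered to 25.9% ± 0.7, 71.1% ± 1.1 and 79.6% ± 0.4. The direction is therefore shared with spliced genes of moderate length. The 48 marked members with only 1-exon transcripts also had a lower 5′ part, but their middle and 3′ parts were close. Their 3 parts had 18.7% ± 2.7, 68.1% ± 1.5 and 70.8% ± 0.7. In equal bins of the body, their coverage was highest before the end, at 87.2% and 83.8% in replicates 1 and 2. It fell to 50.7% and 49.3% in the last bin of the body. In the 1523 genes of several blocks the highest bins had 82.1% and 81.9%, and the last bin 73.4% and 72.1%. The bins were not compared at like length, and a bin spans more bases in a longer gene.

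Single members show how this looks. The 3 parts of D1Pas1 had 5.89%, 100% and 100% in replicate 1 and 0%, 89.4% and 100% in replicate 2. Fzd7 was covered earlier, with 56.4%, 100% and 93.4% in replicate 1 and 58.7%, 91.1% and 81.1% in replicate 2. Sox2 had 24.8%, 100% and 65.7% in replicate 1 and 44.4%, 100% and 100% in replicate 2. In each of the 3 genes the first part was the least covered in both replicates. The first base of the gene lay in a peak in both replicates in 14 of the 122 marked members, and the last base in 66. In the 76 without overlap these counts were 4 and 38, and in the 27 inside another coding gene 7 and 15.

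**Figure D5:**
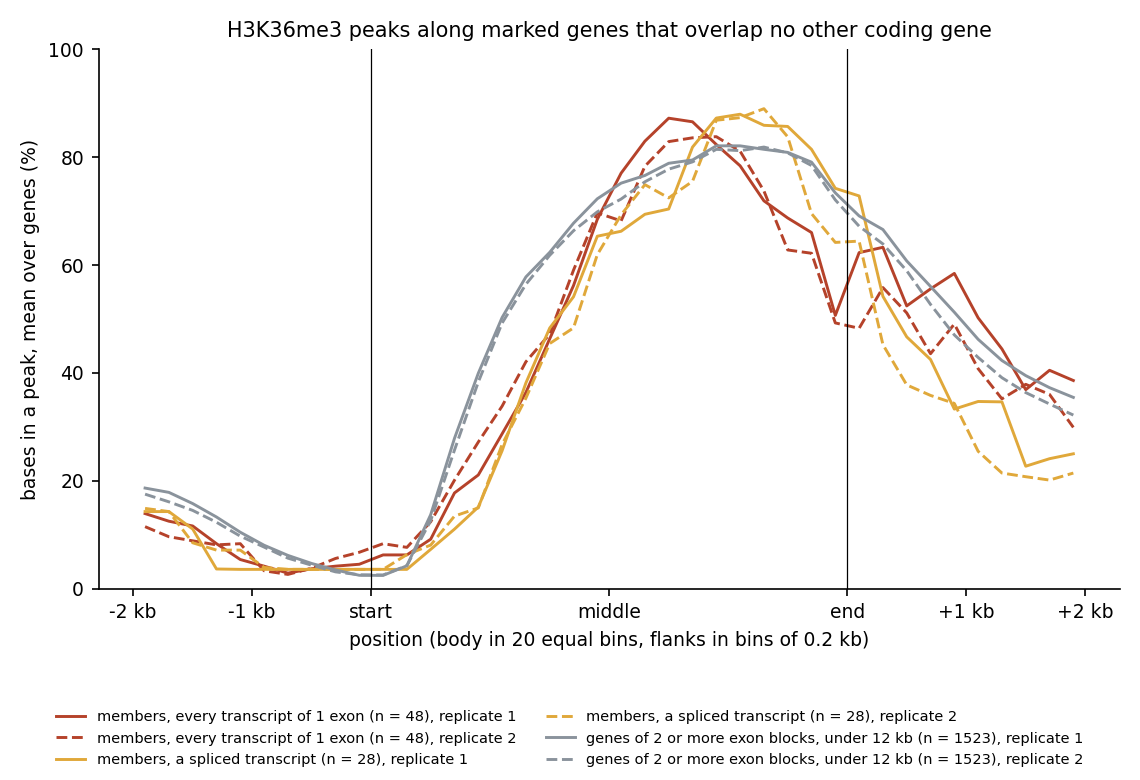
Percent of bases in a peak, averaged over genes (y axis), along marked genes that overlap no other coding gene, for 48 members with only 1-exon transcripts, 28 members with a spliced transcript and 1523 genes of 2 or more exon blocks under 12 kb. The x axis gives 20 equal bins of the body and 2 kb on each side in bins of 0.2 kb, solid lines are replicate 1 and dashed lines replicate 2; in all 3 sets coverage is low at the start and highest in the later part of the body.

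Since the start itself was mostly free of peaks, promoters were described by their sequence as well as by their coverage. RefSeq promoter windows on GRCm38.p6, from 250 bases before to 50 bases after the start, matched 487 members. In 100 marked members 8.23% of the bases of these windows lay in peaks of replicate 1 and 7.74% in peaks of replicate 2, and 8 windows were touched by a peak in both replicates (8.0%). In 6180 marked genes of several blocks the shares were 1.63% and 1.55%, and 112 windows were touched in both replicates (1.81%). Windows of genes that overlap other coding genes are included in both sets. Among marked members, the first base was covered in both replicates in 7 of 27 nested ones and 4 of 76 without overlap. The part of overlap in the higher share of members was not tested. In 387 unmarked members the shares were 0.245% and 0%. Windows with at least 50% G and C and a CpG ratio of observed to expected of at least 0.6 were called CpG-rich. Of 175 members with a CpG-rich window 75 were marked (42.9%), and of 312 with another window 25 (8.01%). Genes of several blocks had 63.9% and 19% in the same classes, so members were lower in each. Among members under 2 kb the counts were 15 of 49 and 15 of 230 (30.6% and 6.52%), so the difference between the promoter classes was also seen in short members.

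Short motifs differed in the same windows. Searched on both strands, TATAAA was found in 9 of 100 windows of marked members (9.0%), 101 of 387 of unmarked members (26.1%) and 13.6% of all 32851 windows of the table. GGGCGG was found in 60 windows of marked members (60.0%), 122 of unmarked members (31.5%) and 35.7% of all windows. CCAAT was found in 42.0% of windows of marked members, 40.8% of unmarked members and 37.4% of all windows. In 6180 marked genes of several blocks, TATAAA was found in 6.13%, GGGCGG in 68.1% and CCAAT in 40.6%. The shares of marked members are thus not particular to single-exon genes. TATAAA holds only A and T and GGGCGG only G and C, the part of base composition in these shares was not tested, and a match describes letters only.

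The windows of 3 members are shown because they stand for a marked member far from other marked genes (Hexim1), a marked member in an unmarked host (Cstf2t) and an unmarked copy (Pgk2). They are RefSeq windows on GRCm38.p6, 5′ to 3′ along the gene, with each match to CCAAT or GGGCGG, or its reverse complement, in capitals. None holds TATAAA. Hexim1 is at chr11:103116075-103116374 on the plus strand, Cstf2t at chr19:31082591-31082890 on the plus strand and Pgk2 at chr17:40208560-40208859 on the minus strand.
Hexim1: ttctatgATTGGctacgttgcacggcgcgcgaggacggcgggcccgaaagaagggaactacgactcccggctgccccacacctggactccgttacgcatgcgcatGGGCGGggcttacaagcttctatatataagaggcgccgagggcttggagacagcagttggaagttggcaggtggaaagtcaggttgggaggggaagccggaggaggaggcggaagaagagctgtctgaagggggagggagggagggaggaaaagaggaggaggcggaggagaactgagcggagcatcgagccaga
Cstf2t: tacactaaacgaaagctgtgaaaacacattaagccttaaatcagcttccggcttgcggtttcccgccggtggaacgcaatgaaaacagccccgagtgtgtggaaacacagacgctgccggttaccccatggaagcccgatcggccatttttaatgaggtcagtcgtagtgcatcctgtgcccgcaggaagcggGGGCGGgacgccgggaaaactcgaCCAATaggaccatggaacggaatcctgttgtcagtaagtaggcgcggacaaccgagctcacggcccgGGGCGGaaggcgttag
Pgk2: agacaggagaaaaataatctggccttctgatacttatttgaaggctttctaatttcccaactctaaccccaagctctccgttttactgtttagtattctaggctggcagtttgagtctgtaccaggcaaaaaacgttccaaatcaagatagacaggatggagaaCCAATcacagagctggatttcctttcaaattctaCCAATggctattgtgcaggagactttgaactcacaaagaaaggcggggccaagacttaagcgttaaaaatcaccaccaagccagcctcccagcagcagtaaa
The Hexim1 and Cstf2t windows are CpG-rich, with 61.0% and 56.7% G and C and CpG ratios of 0.861 and 1.08. The Pgk2 window has 43% G and C and a ratio of 0.291. None of the 3 windows had a covered base in either replicate, while the bodies of Hexim1 and Cstf2t were marked and that of Pgk2 had 0%.

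Members that resemble a spliced gene were marked about as often as other members. A member was called retrocopy-like when the best match of its protein to a protein of a gene with 2 or more blocks had at least 50% identity over at least 80% of its length. The rule uses protein resemblance only. Members such as Fzd7, matched to Fzd5, may be family relatives and not copies. Of 149 such members 29 were marked (19.5%), against 92 of 506 other members with a protein (18.2%). The match lay elsewhere in the genome for 143. Of the 84 whose matched gene was marked, 22 were marked (26.2%), and of the 59 whose matched gene was not, 4 (6.78%). The matched gene alone was marked in 62 pairs. Of those 84 members 15 were under 50% unique and none of them was marked, which leaves 22 of 69 among the others. Of the 59 members with an unmarked matched gene 14 were under 50% unique and none of them was marked, which leaves 4 of 45.

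Pairs in both states can be read from the printed sequences. D1Pas1 had 68.6% and 63.1% in replicates 1 and 2, and Ddx3x, its spliced relative, 70.7% in both. Cstf2t had 70.8% and 71.8%, and Cstf2 58.2% and 60.0%. Mcts2 had 100% and 79.3%, and Mcts1 17.7% and 19.3%. Pgk2 had 0% in both replicates, and Pgk1 87.3% in both. The first 3 copies were marked together with the spliced gene, whereas the fourth was not, and all 32-base words of Pgk2 are unique.

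Some other retrocopy-like members were at 0 with unique sequence, while the matched gene was highly covered. Actbl2, an actin gene related to Actb, had 0% in both replicates, and Actb 67.4% and 69.9%. Pabpc2, a poly(A)-binding protein gene, had 0% in both, and Pabpc1 83.3% and 81.7%. Both were chosen after their values were seen. In the other direction Tmem185b had 75.5% and 76.0%, and Tmem185a on the X chromosome 0% in both. Purb had 78.3% and 75.5%, and its relative Pura 6.22% and 0%.

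Families of members described by symbol were mostly without the mark. In 13 of 24 lists, with 169 members in all, none was marked. They include 54 keratin-associated protein genes, 35 bitter taste receptors, 22 protocadherin beta genes, 17 interferons and 14 forkhead factors, and every member of these 5 lists had no covered base. The median 32-base uniqueness was 76.7% for keratin-associated protein genes, 55.5% for interferons, 98.9% for forkhead factors and 100% for bitter taste receptors. The 2 Hspa members, which encode HSP70 chaperones, also had no covered base, at a median uniqueness of 33.3%. Among other G protein-coupled receptor genes 4 of 49 were marked, namely Fzd7, Fzd10, Gpr151 and Gpr62. Each of these shares is below the 18.5% of all members. Several of the 13 lists without a marked member hold only 2 to 4 genes. At a share of 18.5%, lists of that size can readily hold none.

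The 14 forkhead, 3 POU class III, 3 C/EBP and 2 Maf transcription factor genes held no marked member. Of 7 Sox genes 2 were marked, Sox2 and Sox12, the second with 47.9% and 55.5% in replicates 1 and 2. Of 14 basic helix-loop-helix genes 1 was marked, Scx, the tendon factor scleraxis, with 54.2% and 16.8%. Scx lies in Bop1, a ribosome biogenesis gene with 81.1% and 77.7%, so it is among the nested members of marked hosts. Of 5 AP-1 and immediate early genes Ier2 was marked, with 31.8% and 73.3%. The 2 values of Scx and of Ier2 are far apart between replicates, and both remain above the threshold.

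Of 6 glycan transferase genes 3 were marked, B3galt4, B3galt6 and B3gnt9, the first with 66.3% and 41.6%. Of 7 F-box and kelch genes 3 were marked, with 46.6% and 44.4% for Klhl9, a substrate adaptor of a CUL3 ubiquitin ligase. Of 11 members with ribosomal protein symbols 3 were marked, Rpl9, Rps13 and Rpl22l1, and all 3 have spliced transcripts. Of 7 imprinted single-exon genes Mcts2 and Zrsr1 were marked. Of 6 histone variant genes H2afx, the variant phosphorylated at DNA breaks, was marked, with 28.7% and 55.5%. Of 3 small GTPase genes none was marked. Of all members 18.5% were marked, and of all autosomal coding genes 38.4%. These lists are small, and no test was made of them or between them.

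Agreement of the replicates was described for marked members only, which passed 10% in both by rule. The median absolute difference was 5.61 percentage points over the 122, with replicate 1 higher in 67, replicate 2 higher in 48 and equal values in 7. Spaca4, a sperm acrosome gene inside Fam83e, had the largest difference among them, with 100% and 55.9%. The 10% rule was passed in replicate 1 alone by 11 members and in replicate 2 alone by 10. These are not among the 122 and could differ more. AC141477.1, for example, had 0% in replicate 1 and 100% in replicate 2.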

How the data were processed

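The authors' peak sets were used as deposited. Per the deposited file lists, each replicate has a set of peaks supported by pseudoreplicates on mm10, which was the main set, and an unthresholded set from another processing run. The deposited set of replicated peaks served as an alternative. The aligner, the peak caller and the read length were not given in the sources used here. Each deposited peak carries the authors' fold enrichment, a ratio over background, and a q-value deposited as −log10; the fold was used only to describe genes within a set, and −log10 q only as a stricter alternative.

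Genes were those of GENCODE M21 (GRCm38), and 0 peaks lay past a chromosome end of RefSeq GRCm38.p6. Of several records of a coding symbol the longest was kept. Overlap was counted in bases with Python 3.11.15, numpy 2.4.6 and pandas 2.3.3, and intervals with scipy 1.17.1. Proteins translated from annotated coding sequence were compared with blastp of BLAST 2.17.0 (E-value at most 1e-05) for 655 members. Coverage and uniqueness were tested on simulated data. The members and the lists were chosen with earlier results of these data known. Named genes are, by rule, the most covered members of each position class, all marked members over 10 kb from another marked gene, unmarked members of highly covered hosts, the extremes of each list, the members that differ most between replicates and those of highest fold; Gtsf1l, which is under 1 kb, Exosc6, Fahd1, Dnajb7, Haspin, Cenpb, Nsmce3, Tssc4, Atf4, Dynll1, Pgk2, Actbl2 and Pabpc2 are named outside it, after their values were seen. The split by spliced transcripts, and the call of a host without the bases of the member, were chosen after seeing the data. The replicates form 1 group, and no test was run. Alternatives were other peak sets, thresholds and filters and leaving out each replicate. The strain of the cells is not that of the reference genome, C57BL/6J.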

Additional observations from a re-analysis of the deposited data

How the results depend on the processing

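Under the alternatives other than those named here, the number of marked members and the marked shares stayed within 1.5 times the main values. Requiring 50% coverage gave 57 marked members, 13.9% of nested members, 6.39% of members without overlap, 12.8% of retrocopy-like members and 20.9% of genes of several blocks. Members with only 1-exon transcripts, a split added after seeing the data, gave 79 marked members, 10.7% of pooled bases covered and 70.8% coverage of the 3′ part. Over 10 kb from another marked gene, 8.73% of members without overlap were marked. The pooled bases of members were covered to 14.2%, and to 15.5% in the unthresholded sets, 13.6% at −log10 q of at least 5 and 16.6% in the deposited set of replicated peaks. For those 3 settings the median of member minus host was -11.8, -15.5 and -10.1 points. It was -5.85 in the main sets, so its size depends on the peak set while its direction did not change. Leaving out each replicate in turn gave 132 to 133 marked members, 25.2% to 29.6% of nested members, 15.6% to 16.8% of members without overlap, 20.8% to 21.5% of retrocopy-like members, 41.0% to 42.0% of genes of several blocks, 13.9% to 14.5% of pooled bases, a median of member minus host from -10.1 to -2.87 points, 15.3% to 18.0% coverage of the 5′ part and 73.0% to 73.1% of the 3′ part. No paired analysis was possible because the 2 replicates form 1 group. Depth is unknown, so the absence of a peak is not evidence of the absence of the mark.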
